A study of Homo sapiens with 6 samples.

Results

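Expression of the albumin gene family and of one of its regulators was examined in Huh7, an established human hepatocellular carcinoma line, with and without silencing of SETD5. The genes were taken by symbol: ALB (albumin), AFP (alpha-fetoprotein), AFM (afamin), GC (the vitamin D-binding protein) and ZHX2, a zinc-finger homeodomain repressor of transcription. All 5 were found among the 14200 genes of the table. Libraries of polyadenylated mRNA came from 3 control and 3 SETD5 knockdown samples, both of Huh7 cells grown in DMEM with serum. Gene silencing used siRNA delivered with a lipid reagent, and what the control cells received was not given in the sources used here, nor was the siRNA sequence. Whether the libraries of one condition derive from independent cultures is not stated in the labels. All p-values therefore describe how these libraries vary, and that variation may be technical.

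ALB, AFP, AFM and GC descend from a common ancestral gene and encode related plasma proteins that hepatocytes secrete. Albumin is the main carrier of fatty acids and many drugs in adult plasma, and alpha-fetoprotein is a major plasma protein of the fetus. Afamin binds vitamin E, and the GC product carries vitamin D metabolites. AFP is shut down in liver after birth and is often re-expressed in hepatocellular carcinoma, where it serves as a serum marker. In mice, ZHX2 contributes to the postnatal silencing of AFP and of a few other fetal liver genes such as Gpc3. ALB, AFP and AFM stand side by side in that order on chromosome 4, with ANKRD17 before ALB and RASSF6 after AFM. GC lies on the same chromosome beyond NPFFR2, ADAMTS3, COX18 and ANKRD17, and ZHX2 is on chromosome 8.

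The 3 adjacent genes are transcribed from short promoters that carry sites for liver factors. The 250 bases before the start of each are shown because these neighbours did not change in the same direction in the comparison below. They come from RefSeq, build GRCh38.p14, in which 3 of the 4 family genes matched, and run 5′ to 3′. Capitals mark every match, on either strand, to TATAAA (the TATA box), CCAAT (the NF-Y core), TGTTTAC (bound by forkhead factors) or TTGCNNAA (bound by C/EBP factors).

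ALB (chr4:73404037-73404286, plus strand): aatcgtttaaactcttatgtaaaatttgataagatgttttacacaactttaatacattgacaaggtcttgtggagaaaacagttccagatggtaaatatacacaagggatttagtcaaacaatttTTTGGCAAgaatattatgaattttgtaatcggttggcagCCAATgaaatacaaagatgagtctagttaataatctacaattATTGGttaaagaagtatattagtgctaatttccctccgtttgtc
AFP (chr4:73435971-73436220, plus strand): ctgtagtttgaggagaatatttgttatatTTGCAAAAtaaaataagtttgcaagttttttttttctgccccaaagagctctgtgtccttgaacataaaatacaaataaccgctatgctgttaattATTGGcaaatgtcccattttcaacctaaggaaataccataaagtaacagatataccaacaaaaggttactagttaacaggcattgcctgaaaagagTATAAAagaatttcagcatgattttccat
AFM (chr4:73481495-73481744, plus strand): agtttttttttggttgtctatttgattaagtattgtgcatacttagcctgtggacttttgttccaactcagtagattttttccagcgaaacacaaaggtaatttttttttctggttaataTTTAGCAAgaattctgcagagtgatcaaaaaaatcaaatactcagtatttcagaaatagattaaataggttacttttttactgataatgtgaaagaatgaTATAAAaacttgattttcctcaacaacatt

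TTGCNNAA was present once in each of the 3 windows, at -125 to -118 in ALB, -221 to -214 in AFP and -130 to -123 in AFM, counted back from the first transcribed base. It is in 9.13% of the 27305 promoter windows searched. TATAAA was found in AFP (-29 to -24) and AFM (-30 to -25), and in 11.1% of all windows. CCAAT occurred in ALB at -86 to -82 and, on the other strand, at -44 to -40, and in AFP at -125 to -121 on the other strand, against 33% of all windows. TGTTTAC was in none of the 3 and in 2.98% of all windows. None of the matches overlapped another. All 3 windows were poor in G and C, at 30% in ALB, 31.6% in AFP and 28% in AFM, beside a median of 58% over all promoters. A match describes these letters and not the binding of a factor.

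The recovered depth was 14038447 to 17095417 reads per library. SETD5, the target, was at 202 to 212 CPM (reads scaled by the authors to library size) in the controls and at 136 to 140 CPM after knockdown, 0.664 times the control mean. Of 7 hepatocyte markers, ALB among them, all were expressed, and the 6 others had means of 340 to 3768 CPM. The summed level of those 6 was 13469 to 14202 CPM in the controls and 10616 to 11027 CPM after knockdown. The groups were apart in 5 of the 6, as they were for 57.3% of all tested genes. Of 15 markers of blood, endothelial and stromal cells, 9 were analysed, 6 of them under 10 CPM. Their summed level was 408 to 434 CPM in the controls and 935 to 1005 CPM after knockdown. It came mainly from the antibacterial enzyme LYZ (260.5 ± 13.1 and 649 ± 41.1 CPM) and the collagen COL1A2 (135 ± 2.41 and 282 ± 6.06 CPM, SD, n = 3 per group). The collagen COL3A1 rose (2.15 ± 0.116 to 4.25 ± 0.584 CPM), as did LUM of the matrix (10.8 ± 0.3905 to 13.0 ± 1.08 CPM), whose call ended without control replicate 3 (adjusted p = 0.0612) or knockdown replicate 3 (0.119). The monocyte receptor CD14 fell (3.62 ± 0.169 to 1.76 ± 0.264 CPM), and CD68 of macrophages did not pass (6.83 ± 1.00 and 7.92 ± 0.322 CPM). Without LYZ and COL1A2 the sum was 25.1 to 26.0 CPM in controls and 28.7 to 29.5 CPM after knockdown, and no marker analysed was at 0. The part of such cells, and of the lower hepatocyte markers, in the results below was not tested, and in bulk RNA fewer cells and less RNA per cell cannot be told apart.

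After SETD5 knockdown, ALB, AFM and GC were higher and AFP and ZHX2 were lower. AFM showed the largest relative change, to 1.40 times the control mean, followed by GC at 1.148, ZHX2 at 0.873, ALB at 1.07 and AFP at 0.9499 times. All 5 passed the limma test (adjusted p under 0.05 over 12865 genes, those averaging 1 CPM or more), in a comparison where 52.1% of all tested genes passed, 25.7% higher and 26.5% lower. Against that background, 5 passes of 5 are read here as no result about the group. The sizes were modest too: 68.7% of tested genes had a larger absolute log2 change than ALB, 74.3% than AFP, 41.4% than GC, 41.2% than ZHX2 and 12.9% than AFM. The 2 conditions were fully apart in 4 of the 5, as they were for 57.3% of tested genes. The plot of levels by library shows all 30 values.

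**Figure D1:**
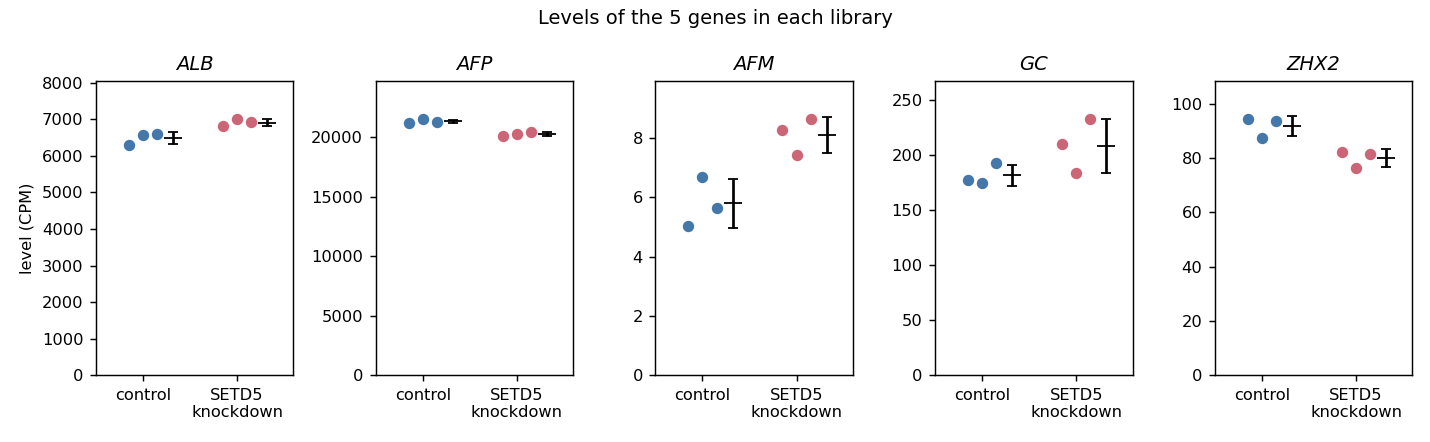
Level in CPM (vertical axis, from 0, a separate scale per gene) of ALB, AFP, AFM, GC and ZHX2 in 3 control (blue) and 3 SETD5 knockdown libraries (red). Points are libraries and the bars beside them the mean ± SD. GC is the gene whose groups overlap, with knockdown replicate 2 at 184 CPM and control replicate 3 at 192 CPM.

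AFP was the most abundant transcript in every library, both in CPM and per kilobase of transcript. It took up 2.02 to 2.14% of all reads. The 3 controls, in replicate order, had 21186, 21509 and 21314 CPM of AFP, and the 3 knockdown libraries had 20113, 20261 and 20430 CPM. Every knockdown value was below every control value, and the means were 21336 ± 163 and 20268 ± 159 CPM (SD, n = 3 per group). The log2 change on the log2(CPM + 1) scale was -0.07, with a 95% interval from -0.13 to -0.02 and a limma adjusted p of 0.0224. The exact two-sided permutation test gave p = 0.1, the smallest possible with 3 against 3. With 298287 to 361848 reads per library, counting error was at most 0.183% of the level, while the libraries of a group differed by a CV of 0.762 and 0.783%. AFP fell by 5.01%, more than that spread, but the call depended on the settings. It ended without the mean-variance trend of limma (adjusted p = 0.114), with library medians set equal (0.0587), and without control replicate 1 (0.063), control replicate 3 (0.0893) or knockdown replicate 1 (0.0642), the direction being the same in each.

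ALB, the adult counterpart of AFP, moved in the opposite direction. Its 3 control values were 6291, 6576 and 6597 CPM, and its 3 knockdown values 6813, 6997 and 6925 CPM, with means of 6488 ± 171 and 6912 ± 92.6 CPM (SD, n = 3 per group). The lowest knockdown library was above the highest control library, and control replicate 1 was the lowest of the 6. The log2 change was 0.09 (95% interval 0.04 to 0.15, limma adjusted p = 0.00389), and the exact two-sided permutation test gave p = 0.1. The call ended without control replicate 1 (adjusted p = 0.0715, log2 change 0.07) and without the mean-variance trend (0.0903). By reads ALB was the third gene of every library, and per kilobase it ranked 4th to 6th among the 12465 genes with a transcript length.

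AFM, the neighbour downstream of AFP, was transcribed at a very low level in these cells. The controls had 5.04, 6.69 and 5.64 CPM of AFM, against 8.25, 7.43 and 8.61 CPM with SETD5 silenced. The groups did not overlap, and the means were 5.79 ± 0.835 and 8.10 ± 0.608 CPM (SD, n = 3 per group). The log2 change of 0.43 (SE 0.105, 95% interval 0.21 to 0.64) had a limma adjusted p of 0.000809, and the exact two-sided permutation p was 0.1. These values rest on 79 to 96 reads per control library and 121 to 144 per knockdown library. Counting error alone was thus 8.33 to 11.3% of a level, close to the CV of 14.4% seen among the controls and 7.51% among the knockdown libraries. Since 1 was added to each CPM before taking logs, the change is understated: with 0.1 added in its place it was 0.48, and with voom on recovered reads 0.51. AFM passed under all 15 alternative settings, with adjusted p from 0.000241 to 0.0123.

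For GC, control libraries read 178, 175 and 192 CPM. Knockdown libraries read 209.65, 184 and 232 CPM. Knockdown replicate 2 lay within the control range and replicate 3 far above it, so that the spread after knockdown (CV 11.7%) was wider than in the controls (5.23%) and several times the counting error, which was at most 1.997%. The means were 182 ± 9.50 and 209 ± 24.4 CPM (SD, n = 3 per group). The log2 change was 0.19 (95% interval 0.10 to 0.29), with a limma adjusted p of 0.000733 and an exact two-sided permutation p of 0.2. Its size depended on single libraries: it was 0.11 without knockdown replicate 3 (adjusted p = 0.021) and 0.28 without knockdown replicate 2 (7.12e-08). Limma estimates a gene's variance partly from other genes of similar level. Without the mean-variance trend the GC call ended (adjusted p = 0.12).

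ZHX2, which is known to hold AFP down in adult mouse liver, was lower after knockdown, with 82.4, 76.2 and 81.7 CPM against 94.3, 87.5 and 93.6 CPM in control cells. No knockdown value reached the lowest control value. The means were 91.8 ± 3.70 and 80.1 ± 3.397 CPM (SD, n = 3 per group), a log2 change of -0.19 (95% interval -0.28 to -0.11, limma adjusted p = 0.000113, exact two-sided permutation p = 0.1). It passed under all 15 alternative settings, with adjusted p from 4.3e-06 to 0.019. ZHX2 thus fell by 12.7% and AFP fell by 5.01% of the control mean.

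**Figure D2:**
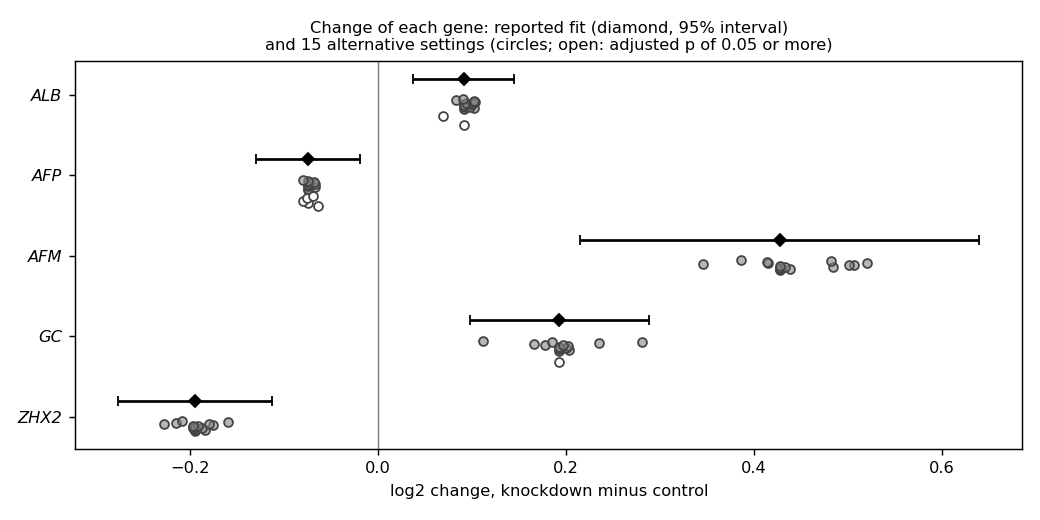
Log2 change, knockdown minus control (horizontal axis), of the 5 genes in the reported fit (diamonds, bars are 95% intervals) and under 15 alternative settings (circles, open where the adjusted p was 0.05 or more). No circle crosses 0, and open circles occur for ALB (2), AFP (5) and GC (1).

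Levels of different genes were compared per kilobase of transcript, taking lengths of 2.263 kb for ALB, 2.484 kb for AFP, 2.059 kb for AFM, 1.972 kb for GC and 4.624 kb for ZHX2. In the controls the order was AFP (8590 ± 65.4 CPM per kb), ALB (2867 ± 75.6), GC (92.1 ± 4.82), ZHX2 (19.9 ± 0.801) and AFM (2.81 ± 0.405). After knockdown it was the same, at 8160 ± 63.9, 3054 ± 40.9, 106 ± 12.4, 17.3 ± 0.735 and 3.93 ± 0.295 CPM per kb (SD, n = 3 per group). In no library did neighbours in this order overlap. The fetal gene of the family was therefore the leading one in Huh7 with or without knockdown, and within one cluster levels ran down to an AFM to ALB ratio per kilobase of 0.000979 in the controls.

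Ratios of 2 genes within a library do not depend on how libraries were scaled. The AFP to ALB ratio per kilobase was 3.07, 2.98 and 2.94 in control cells, against 2.69, 2.64 and 2.69 with SETD5 silenced. All knockdown ratios lay under all control ratios, and the group spread was small (2.997 ± 0.0642 and 2.67 ± 0.0292, SD, n = 3 per group). The difference was -0.17 on the log2 scale, and leaving out any single library gave -0.18 to -0.15. Because the 2 genes moved in opposite directions, this shift has to be larger on the log2 scale than the change of either gene alone. A ratio shows unequal change and not which gene moved.

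Among the 6 pairs of family genes, the groups were apart in 4, where 57.3% of single tested genes were apart. The share over other gene pairs was not computed, and the 6 pairs reuse the same 4 genes. The count is therefore read as no result about the family. AFM rose relative to ALB by 0.40 and relative to AFP by 0.57 on the log2 scale, and GC rose relative to AFP by 0.27, with no overlap between groups in any of these. GC relative to ALB (0.10, exact two-sided permutation p = 0.5) and AFM relative to GC (0.30, exact p = 0.2) overlapped. The GC to ALB difference was 0.02 without knockdown replicate 3 and 0.20 without knockdown replicate 2. For the 4 pairs without overlap the exact permutation p was 0.1, the smallest that 3 against 3 allows, and 0.15 after Benjamini-Hochberg adjustment over the 6 pairs, so none could pass 0.05.

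**Figure D3:**
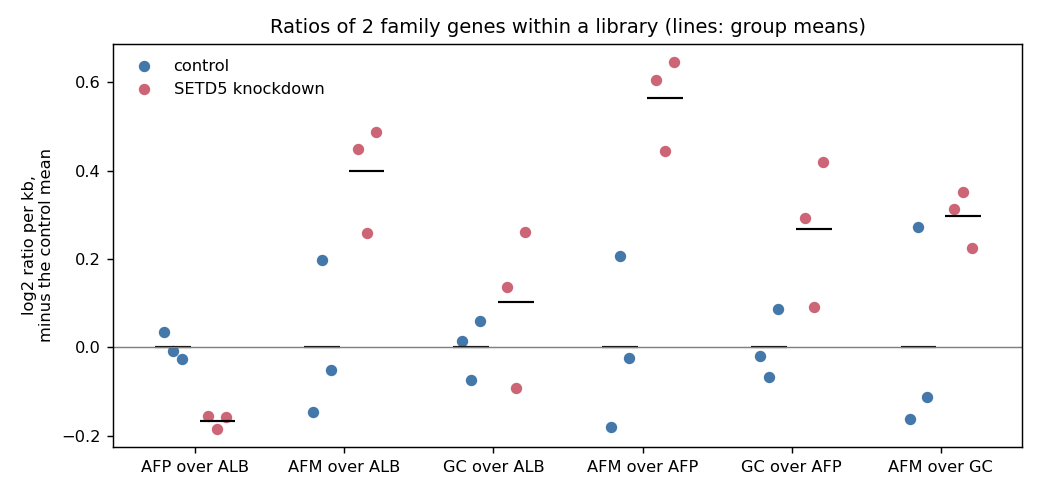
Log2 ratio per kilobase of 2 family genes within a library, minus the control mean of that ratio (vertical axis), for 6 pairs (horizontal axis), in control (blue) and SETD5 knockdown libraries (red), with lines at the group means. The AFP to ALB ratio falls by 0.17 with little spread, while AFM to AFP rises by 0.57.

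The other plasma proteins of liver formed the closest setting for the family. Of 34 tested carrier and binding proteins, 25 fell and 5 rose, beside 26.5% lower and 25.7% higher over all tested genes. Their median log2 change was -0.45, beside -0.001 over all tested genes. ITIH1, a hyaluronan-binding inhibitor chain, fell from 35.3 ± 3.55 to 14.6 ± 2.83 CPM, and the heme carrier HPX from 83.6 ± 2.91 to 40.2 ± 2.25 CPM (SD, n = 3 per group). The protease inhibitor SERPINA1, the most abundant by its mean over all libraries of those that fell, went from 4016 ± 111 to 3520 ± 103 CPM. The rises were FGG (1370.5 ± 17.6 to 2604.5 ± 83.1 CPM), FGA (1534 ± 10.3 to 2719 ± 65.9 CPM) and FGB of fibrinogen, the protease inhibitor A2M (3150 ± 136 to 4394 ± 148 CPM), and KNG1. FGB and KNG1 are named as the remaining rises, after their values were seen. ALB had a higher log2 change than 28 of the 34, as did GC, AFM a higher one than 31 and AFP than 27. AFP, though it fell, thus ranked above most plasma protein genes. The list was put together with earlier results on these libraries known, so its counts are a description.

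**Figure D4:**
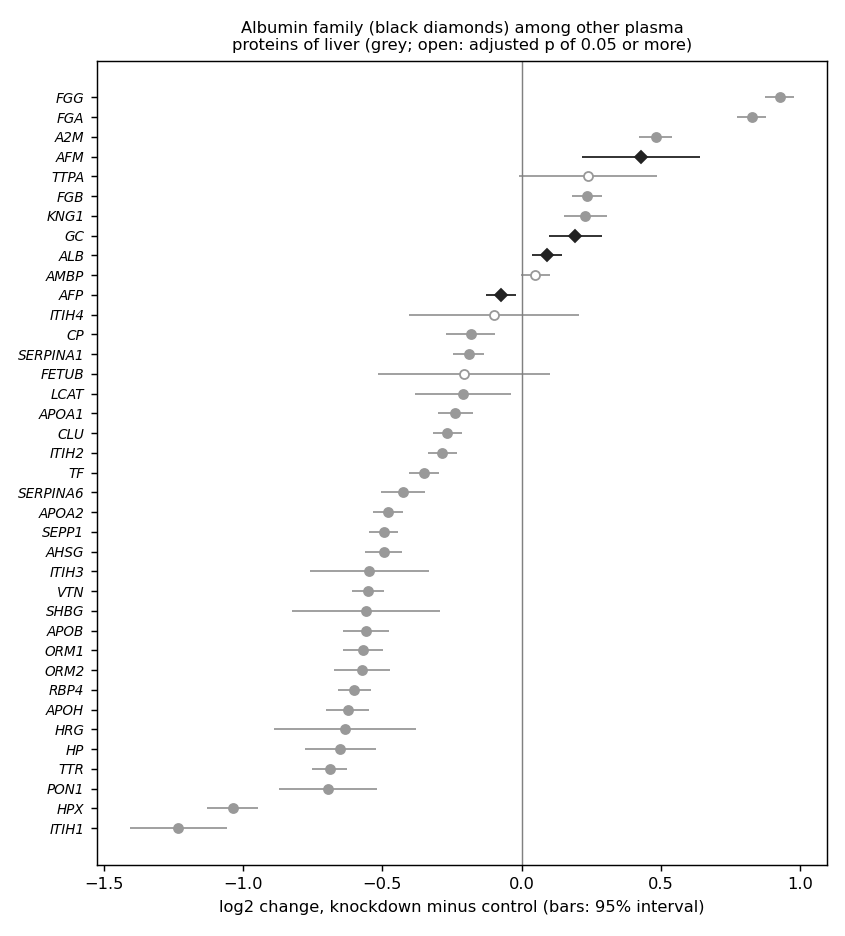
Log2 change, knockdown minus control (horizontal axis), with 95% intervals, of ALB, AFP, AFM and GC (black diamonds) and 34 other plasma proteins of liver (grey circles, open where the adjusted p was 0.05 or more), ordered by change. The 4 family genes lie in the upper part of the plot, between the fibrinogen chains FGG and FGA and the 25 genes that fell.

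ZHX2 belongs to a small family whose members bind NF-Y, the CCAAT-binding factor. ZHX1 fell more strongly than ZHX2, from 114 ± 3.10 to 85.5 ± 2.81 CPM (SD, n = 3 per group), a log2 change of -0.40 (limma adjusted p = 1.8e-11). ZHX3 was at 27.3 ± 0.551 and 25.8 ± 1.18 CPM and HOMEZ, a related homeobox gene, at 14.965 ± 0.631 and 14.8 ± 0.393 CPM, without passing. Of the NF-Y subunits, NFYA rose from 96.8 ± 1.47 to 121 ± 2.23 CPM, NFYC fell from 40.0 ± 1.62 to 34.1 ± 0.639 CPM, and NFYB was at 45.2 ± 3.39 and 43.5 ± 1.602 CPM without passing. Of the 7 genes, 1 rose and 3 fell, beside 25.7 and 26.5% of all tested genes.

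Genes known to be repressed by ZHX2 in liver or hepatoma cells did not move one way. Of 8 listed, AFP, GPC3, CCNA2, CCNE1 and ABCB1 were analysed, and H19, LPL and ELOVL3 were not analysed here. GPC3, an oncofetal proteoglycan and tumour marker, was at 1329, 1343 and 1354 CPM in the controls and 1697, 1723 and 1740 CPM after knockdown, a log2 change of 0.36 (limma adjusted p = 7.79e-15). The knockdown values were all above the controls, so GPC3 and AFP, 2 markers of the same tumour type, changed in opposite directions. The cyclin CCNA2 fell from 171 ± 6.27 to 147 ± 3.24 CPM, as did the drug efflux pump ABCB1, from 89.3 ± 2.503 to 74.2 ± 2.29 CPM (SD, n = 3 per group). CCNE1 was at 22.0 ± 0.985 and 22.5 ± 2.37 CPM without passing.

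Transcription factors known to act on the ALB and AFP promoters and enhancers were listed as regulators. Of 40 tested, 20 rose and 11 fell, ZHX2 included, beside 25.7% higher and 26.5% lower over all tested genes. The share that fell is close to that of all genes. The median log2 change was 0.08, beside -0.001 over all tested genes. ONECUT2 rose from 73.2 ± 3.20 to 131 ± 6.90 CPM and ONECUT1 from 23.2 ± 1.13 to 41.3 ± 2.34 CPM. ZFHX3, which was described as a repressor of AFP, rose from 20.1 ± 2.13 to 32.9 ± 4.03 CPM, and HLF, a PAR-domain factor of adult liver, fell from 33.7 ± 1.44 to 19.3 ± 1.36 CPM (SD, n = 3 per group). The WNT effector CTNNB1 rose to 1.32 times the control. HNF4A, a master regulator of hepatocytes, was at 350.2 ± 14.0 and 348 ± 3.65 CPM without passing.

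The C/EBP and FOXA factors of the list, whose motifs were searched above, and a known repressor of AFP were picked after their values were seen. Of the C/EBP genes, CEBPA fell to 0.793 times the control, CEBPD rose to 1.59 times from 6.88 ± 0.128 CPM, and CEBPB was at 27.1 ± 1.10 and 26.1 ± 2.75 CPM without passing. FOXA1 rose to 1.149 times and FOXA2 to 1.12 times, and FOXA3 was at 72.9 ± 4.18 and 75.8 ± 0.969 CPM without passing. ZBTB20, which represses AFP in adult mouse liver, rose from 21.2 ± 0.221 to 25.8 ± 2.54 CPM (SD, n = 3 per group, limma adjusted p = 0.000963). ZFHX3 and ZBTB20, known repressors of AFP, thus rose and ZHX2 fell, while AFP itself was lower.

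**Figure D5:**
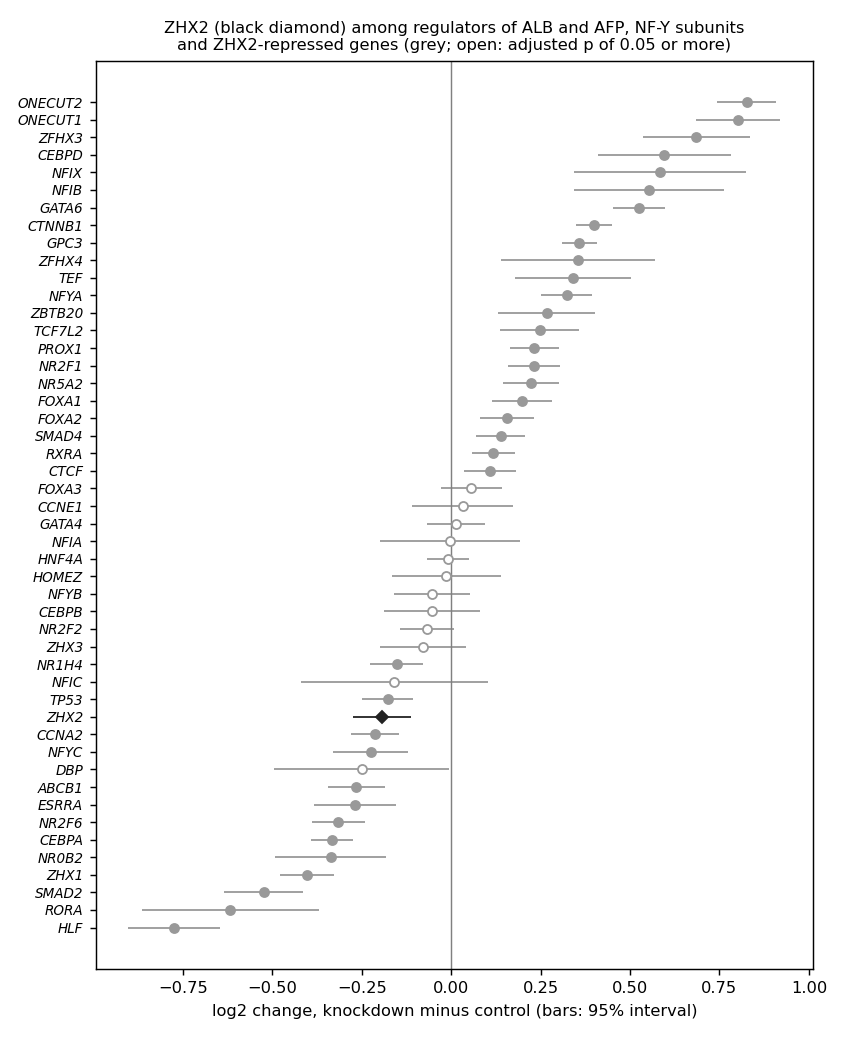
Log2 change, knockdown minus control (horizontal axis), with 95% intervals, of ZHX2 (black diamond) and of regulators of ALB and AFP, NF-Y subunits and ZHX2-repressed genes (grey circles, open where the adjusted p was 0.05 or more). ZHX2, at -0.19, lies beside CCNA2, and ZHX1 lies lower at -0.40.

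Of 25 other oncofetal and hepatoblast genes tested, 15 rose and 5 fell, beside 25.7% higher and 26.5% lower over all tested genes, with a median log2 change of 0.19. Whether the list stands apart from other genes was not tested. SOX4, a progenitor factor, rose from 140.4 ± 1.80 to 342 ± 6.67 CPM, SPINK1 from 106 ± 1.54 to 168 ± 6.89 CPM and the growth factor MDK from 234 ± 4.90 to 333 ± 9.003 CPM, whereas DLK1, a hepatoblast surface protein, fell from 101 ± 6.15 to 54.6 ± 3.54 CPM (SD, n = 3 per group). PEG10, the most abundant of the list after AFP, was at 2170 ± 6.30 and 2266 ± 48.5 CPM and passed (limma adjusted p = 0.0344), but not without control replicate 1 or 3 or knockdown replicate 1 or 2 (adjusted p 0.0691 to 0.134), nor without the mean-variance trend (0.195). With AFP counted, 6 of 26 fell.

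Genes beside the albumin cluster and ZHX2 passed about as often as genes at large: of 22 tested neighbours on both chromosomes, 8 rose and 4 fell, beside 25.7% higher and 26.5% lower over all tested genes, with a median log2 change of 0.08. Of those between GC and CXCL8, ANKRD17 rose from 121 ± 2.25 to 139.5 ± 6.24 CPM, and COX18 was at 20.96 ± 1.59 and 19.4 ± 2.18 CPM without passing, though it passed without knockdown replicate 2 (adjusted p = 0.0405). The protease ADAMTS3 fell from 3.45 ± 0.753 to 2.45 ± 0.214 CPM (limma adjusted p = 0.0243), a call that ended without control replicate 2 (0.187, log2 change -0.23 in place of -0.36) or knockdown replicate 3 (0.0867). NPFFR2 (0.363 ± 0.198 and 0.654 ± 0.103 CPM) and RASSF6 (0.986 ± 0.0632 and 0.715 ± 0.193 CPM) were under 1 CPM and not tested. Further along, the chemokine CXCL8 fell from 13.9 ± 0.219 to 9.59 ± 0.0758 CPM while CXCL6 rose from 6.83 ± 0.649 to 10.8 ± 0.841 CPM. The EGF-receptor ligands EREG (1.38 ± 0.186 to 4.36 ± 0.340 CPM) and AREG (0.838 ± 0.310 to 7.16 ± 0.0391 CPM) rose most. Near ZHX2, DERL1 was at 83.7 ± 0.899 and 83.95 ± 3.96 CPM without passing, and ATAD2 was at 363 ± 7.59 and 347 ± 8.99 CPM (SD, n = 3 per group, limma adjusted p = 0.0558). It passed without control replicate 1 (0.0384) or knockdown replicate 2 (0.0381) and with the replicate number as a block (0.0363).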

How the data were processed

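Poly(A)-selected, stranded mRNA libraries of Huh7 cells were sequenced, per the labels' protocols. STAR 2.5.1, R 3.3.0 and the builds hg19 and mm10 appear in the submitters' processing notes without roles. Not given in the sources used here is how reads were counted and scaled. The authors deposited log2 values, which are log2(CPM + 1): once the log and the added 1 were undone, 100% of values were whole multiples of a step of their column, within 0.01 of a read. Reads were recovered from these steps, 14038447 to 17095417 per library. Counting errors cover counting alone, since PCR copies are not independent molecules.

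Genes averaging 1 CPM or more over the libraries (12865) were tested with limma 3.58.1 in R 4.3.3 (mean-variance trend, two-sided, group as the only term), adjusted by Benjamini-Hochberg over all of them at 0.05, and 1335 genes were left out. Single values and ratios were compared by exact permutation. Libraries of a group differed by a chi-square of 1.25 to 2.07 per gene, above the value near 1 of sampling alone. Between groups it was 18.9 to 23.2. All 6 were treated as replicates, although these values cannot tell separate cultures from technical repeats. Scripts were tested on simulated data. Transcript lengths came from GENCODE 29, promoters from RefSeq.

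The genes and lists were chosen with earlier results of these data known. The rule named, per list, the 4 called genes that changed most and the 2 others highest in level, all ZHX, NF-Y and ZHX2-repressed genes, the neighbours between GC and CXCL8, and DERL1, ZHX1 and ATAD2. Others are marked as chosen later. Some planned results on regulators and motifs are not reported here. Alternatives were another pseudocount, other filters and scalings, no trend, a replicate block and leaving out each library. Added after seeing the data was voom on recovered reads with 2 kinds of library size. It took the place of 2 planned count tests, which were not run although reads had been recovered.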

Additional observations from a re-analysis of the deposited data

How the results depend on the processing

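The 5 genes kept their direction under all 15 alternatives to the reported fit. AFM and ZHX2 passed under each. ALB did not pass without the mean-variance trend (log2 change 0.0916) or without control replicate 1, with 0.0695 to 0.104 over the libraries left out. AFP did not pass without the trend (-0.0741), under median centring (-0.0634), or without control replicates 1 or 3 or knockdown replicate 1, with -0.0799 to -0.0683 over the libraries left out. GC did not pass without the trend (0.193). The cause was not tested in any of these. Both forms of voom called all 5, with adjusted p of 8.96e-06 and 6.94e-06 for AFP. The 2 planned count models were not run. Over all genes, 3303 were higher and 3403 lower, and no alternative moved either count by over 1.5 times. Directions of 6 genes that did not pass turned. HOMEZ (-0.0341 to 0.0185 over the libraries left out) turned without control replicate 1, NFYB (-0.0973 to 0.00443) without control replicate 2 and CCNE1 (-0.0250 to 0.116) and CEBPB (-0.109 to 0.0321) without knockdown replicate 2. HNF4A (-0.0396 to 0.0179) turned without control replicate 1 and under median centring (0.00141). DERL1 (-0.0172 to 0.0428) turned without control replicate 2 and without knockdown replicates 2 or 3. List counts moved by over 1.5 times in 1 of 240 cases. Deviations from the group mean had r of -0.011, 0.054 and 0.042 for equal replicate numbers 1, 2 and 3. For unequal numbers r ran from -0.060 to 0.021. Replicates 2 and 3 thus correlated best with their own number, and replicate 1 did not. These r are small, and whether the numbers pair the libraries cannot be decided from them. With a replicate block 3399 genes were higher and 3499 lower, and the GC log2 change of 0.193 had an adjusted p of 4.72e-08. Depth limits AFM most, at 79 to 144 reads per library.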

Other observations

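Genes that handle the ligands of the family passed about as often as genes at large. Of 17 tested genes for albumin recycling, vitamin D metabolism and vitamin E transfer, 4 rose and 5 fell, beside 25.7% higher and 26.5% lower over all tested genes, with a median log2 change of -0.03. The endocytic receptor LRP2, which takes up the vitamin D-binding protein in kidney, rose from 10.7 ± 0.822 to 19.2 ± 2.86 CPM, and the sterol hydroxylase CYP27A1 fell from 53.8 ± 1.62 to 39.5 ± 0.769 CPM. LRP1 fell from 741 ± 33.2 to 569.8 ± 74.8 CPM and SPARC, an albumin-binding matrix protein, rose from 40.5 ± 0.758 to 49.9 ± 3.91 CPM (SD, n = 3 per group). The ER proteins CALR and GANAB fell to 0.881 and 0.929 times the control.

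The libraries did not order the 5 genes alike. Knockdown replicate 2 had the highest ALB of its group and the lowest AFM, GC and ZHX2, and control replicate 2 had the highest AFP and AFM of the controls and the lowest GC and ZHX2. Over the 6 libraries, the log2 values most like those of ALB among 7695 genes averaging 20 CPM or more were those of HNRNPL (Pearson r = 0.998), BTBD3 and DDX46. For AFP they were QDPR (r = 0.998), MAPK8 and SCAMP1, for AFM RUFY1 (r = 0.994), AGBL5 and DNAJC2, for GC ARVCF (r = 0.993), UNK and AGTR1, and for ZHX2 LSR (r = 0.997), ACTN1 and C6orf120. A gene that differs between the groups in the same direction has a high r by that alone, and 699 genes had an r over 0.95 with AFP but 11 with GC. These r describe the libraries, which share their group and scaling, and carry no test.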
